A study of Mus musculus with 4 samples.

Results

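The genes described here are mouse protein-coding genes that still carry the name of a RIKEN clone from the 49xx series of testis cDNA libraries. They were taken from the mm10 annotation of GENCODE release M21 as the protein-coding genes whose symbol starts with 4921, 4922, 4930, 4931, 4932 or 4933, goes on with a clone code and ends in Rik. This rule gave 141 of 21,951 protein-coding genes, and a read cluster was given to a gene when its centre lay in the gene's span on the same strand. The measurements are eCLIP-seq profiles of the RNA-binding protein IGF2BP3 in testes of wild type C57BL/6 mice 8 weeks of age, with germ cells and somatic cells together. There were 2 replicates, each with 1 IGF2BP3 IP library and 1 SMInput library, 4 samples in all. SMInput is crosslinked RNA of the same lysate, sized like the IP and sequenced without the antibody, and each IP was set against its own SMInput.

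Mouse cDNA projects gave a transcript a clone name when no gene name existed, and the leading digits of such a name point to the library. A testis library samples the RNA of a tissue in which meiotic and post-meiotic germ cells express many genes that few other tissues use, and in which spermatids store messages before they are translated. IGF2BP3 belongs to a family of cytoplasmic proteins with RRM and KH domains that bind mRNA, often in the 3′UTR, and act on its stability, storage and translation. In eCLIP, UV light links protein and RNA, the protein is precipitated, and reads that pile up in the IP above SMInput mark places where it touched RNA.

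For every cluster the authors gave a log2(fold change) of IP over SMInput reads, each scaled to its library, and a −log10(P value) of the same comparison. Following the study's methods, a cluster with both values at 2 or above is called a significant peak. The libraries held 5,133,438 IP and 8,706,391 SMInput reads in replicate 1. In replicate 2 they held 4,637,612 IP and 16,696,122 SMInput reads. Library totals and cluster reads are not listed and were calculated back from the 2 values given for each cluster; where the −log10(P value) lay between 0 and 400, exactly 1 pair of read numbers returned both values for 99.8% of clusters in either replicate. A recovered SMInput number of 1 is the lowest the tables hold and may stand for 1 read or for none.

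The labelled tissue was checked against genes that mark its cells. All 12 germ cell markers had clusters in both replicates, 354 clusters in replicate 1 and 322 in replicate 2. Prm1 and Prm2, the protamines that pack sperm chromatin, had 1,301 and 1,903 SMInput reads in their clusters in replicate 1. In replicate 2 the protamine sums were 2,230 and 3,827 reads, so spermatid RNA was well covered in both, while stages of spermatids were not told apart. Somatic cells were present too. Of the 5 Sertoli markers, 5 had a cluster in replicate 1 and 4 in replicate 2, the exception being Rhox5, and Clu, the most abundant of them, had 2,033 and 5,210 SMInput reads. All 5 Leydig markers had clusters in both, led by Insl3 with 2,536 and 4,061 SMInput reads. Of the 4 markers of peritubular cells and vessels, 4 and 3 had clusters, with Pecam1 missing from replicate 2, and Acta2 led with 109 and 220 SMInput reads. These gene sums leave out clusters with a −log10(P value) listed at 0. In RNA of whole testes, more cells of a type and more RNA per cell cannot be told apart. The cells that each clone-named transcript came from were not tested.

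The 141 genes lay on 20 chromosomes, 20 of them on X. Their spans ran from 501 to 235,049 bases with a median of 13,378, and the median gene had 4 exons, a coding length of 867 bases and a 3′UTR of 285 bases. By library, 78 carried a 4930 name, 30 a 4933 name, 14 a 4931 name, 12 a 4921 name and 6 a 4932 name, while 4922502D21Rik was the 1 gene with a 4922 name. RefSeq for GRCm38.p6 matched 132 of them by symbol or synonym, and 9 had no match. Not all of the matched genes were coding there: 114 were protein-coding, 13 lncRNA, 4 transcribed pseudogenes, and 4930404H24Rik was listed as a miscellaneous RNA. Another name stood in RefSeq for 20 of the genes, among them Tex55 for 4930435E12Rik, Garre1 for 4931406P16Rik and Iqca1l for 4931409K22Rik. The group is therefore a naming class with mixed biotypes, and the label holds for what the clones are, not for a shared function.

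Most of these genes had RNA in the libraries. Clusters lay in 105 genes in replicate 1 (74.5%, against 64.0% of all protein-coding genes) and in 100 in replicate 2 (70.9%, against 58.5%). In either replicate 110 genes had a cluster, in both 95, and 31 had none in either. The genes held 1,891 clusters in replicate 1 and 1,332 in replicate 2, with medians of 5 and 4 per gene.

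A part of these clusters was enriched in the IGF2BP3 IP. In replicate 1, 116 of the 1,891 clusters were significant peaks, 6.13% with a 95% Wilson interval of 5.14% to 7.31%, where the background was 4.91% of the 325,667 clusters in protein-coding genes and 4.92% of all clusters. In replicate 2, 184 of the 1,332 were significant, 13.8% with an interval of 12.1% to 15.8%, where the background was 13.1% in protein-coding genes and 13.2% of all clusters. The clone-named genes thus lay a little above the background in replicate 1 and at it in replicate 2. The difference between the replicates themselves was far larger than either distance from the background. All intervals on shares cover counting error only, and clusters of 1 gene or 1 library are not independent.

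Counted by gene, 42 of the 141 had a significant peak in replicate 1 (29.8%, against 26.1% of all protein-coding genes). In replicate 2 there were 52 (36.9%, against 36.8%). Both replicates gave a peak in 36 genes, 25.5% against 21.9%, and either gave 1 in 58, 41.1% against 41.0%. The share of genes touched was thus near that of protein-coding genes as a whole. Among the 105 with a cluster in replicate 1, 42 had a peak, close to the 40.8% of all protein-coding genes with a cluster. In replicate 2 that share was 52.0% beside 62.8%, lower for the clone-named genes. With at least 10 IP reads asked of a peak, 29 genes in place of 52 had a peak in replicate 2, where all protein-coding genes went from 8,068 to 3,763. By cluster that setting gave 7.43% beside 5.07% in replicate 2, so that there, too, the clone-named genes lay above the background. These are shares of all clusters, whatever their reads. Where reads were recovered, 74.0% of the clusters of these genes had fewer than 10 IP reads in replicate 2, beside 80.3% of all clusters. The part of read depth in this distance was not tested.

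A stricter count asks that significant peaks of both replicates share at least 1 base on the same strand. This held in 19 genes, 13.5% with an interval of 8.80% to 20.1%, where the background was 9.33% of protein-coding genes. The interval includes the background share. It lay above the background with adjusted P, at 8.80% to 20.1% beside 8.0%, with both thresholds at 3, at 3.39% to 11.7% beside 2.75%, and, by little, with at least 10 IP reads, at 7.67% to 18.5% beside 7.64%. With a log2(fold change) threshold of 1 the interval included the background, at 9.95% to 21.7% beside 14.4%. The interval also included it with exons alone, with clusters in another gene left out and with the other rules for the span and the overlap. With the replicate as a block, a pair of overlapping clusters can pass when 1 of them does not, and 38 genes were called, including all 19. These are 27.0%, beside 22.8% of protein-coding genes. Of the 95 with clusters in both replicates these 19 are a somewhat larger share than the 16.6% of all such protein-coding genes. Of the single peaks, 55 of 116 in replicate 1 overlapped one of replicate 2, or 47.4%, beside 32.9% for peaks of all protein-coding genes. From replicate 2, 50 of 184 overlapped one of replicate 1, or 27.2% beside 18.4%. The peaks of the clone-named genes met a peak of the other replicate more often than the background peaks did, and their reads were also more numerous: 15.5% of their peaks in replicate 1 had fewer than 10 IP reads, beside 29.0% for all protein-coding genes. In replicate 2, 46.4% had fewer than 10, beside 61.9%. The part of read depth in the overlap was not tested.

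Enrichment in a peak was of the usual size for these tables. Their significant peaks had a median log2(fold change) of 2.84 in replicate 1, equal to the 2.84 of all protein-coding genes, and of 3.0 in replicate 2, beside 3.07. The median peak of replicate 1 held 16 IP reads and 5 SMInput reads, that of replicate 2 held 11 and 6. A peak of 4933414I15Rik, with 170 IP reads against 10, was the deepest of replicate 1. The highest fold changes on the log2 scale were 4.85 in replicate 1 and 5.02 in replicate 2. Across the 687 pairs of overlapping clusters in 74 of the genes, the log2(fold change) of the replicates correlated with r = 0.68 (Pearson) and rho = 0.60 (Spearman). Over 91,053 pairs in protein-coding genes the values were 0.64 and 0.60. The replicate block counted 93,551 pairs in protein-coding genes, so this background does not cover all of them. Clusters in a pair cover the same RNA, and neighbours share a gene and libraries, so they are no independent replicates. With 1 pair per gene the r was 0.69 over 74 pairs.

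Peaks sat mostly in mature mRNA. In replicate 1, 49 of the 116 significant peaks lay in a 3′UTR (42.2%), 43 in coding sequence (37.1%), 5 in a 5′UTR (4.31%) and 19 in introns (16.4%). Clusters of the same genes that did not pass looked different, with 59.1% of 1,775 in introns and 7.27% in a 3′UTR. In replicate 2 the 184 peaks were divided into 60 in a 3′UTR (32.6%), 62 in coding sequence (33.7%), 6 in a 5′UTR (3.26%) and 56 in introns (30.4%). Of the 1,148 clusters that did not pass in replicate 2, 47.2% were intronic and 7.49% lay in a 3′UTR. In the background the 3′UTR took 44.7% and 37.9% of the peaks and introns 23.2% and 38.9%, both above the clone-named genes. Still, in both replicates the 3′UTR of these genes held a larger share of the significant peaks than of the other clusters, and introns a smaller one. This contrast was not taken for all protein-coding genes, so it cannot be called particular to these genes.

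Coding sequence took a larger share of the peaks than in all protein-coding genes. The share of peaks in coding sequence was 37.1% beside 29.5% of the peaks of all protein-coding genes in replicate 1, where the Wilson interval of 28.8% to 46.1% reaches the background. In replicate 2 it was 33.7% beside 21.2%, with an interval of 27.3% to 40.8%. Set against the clusters of the same genes that did not pass, of which 29.1% and 39.8% were coding, the share of the peaks was higher in replicate 1 and lower in replicate 2. Peaks that overlapped a peak of the other replicate were nearly free of introns. Among them, 27 of 55 in replicate 1 lay in a 3′UTR, 24 in coding sequence, 1 in a 5′UTR and 3 in introns. Of the 50 in replicate 2, 28 were in a 3′UTR, 19 in coding sequence, 1 in a 5′UTR and 2 in introns. Overlapping peaks of all protein-coding genes had as few in introns, 2.80% and 2.89% beside 5.45% and 4.0% here. They had more in the 3′UTR, 62.3% and 62.6% beside 49.1% and 56.0%. The Wilson interval of the clone-named genes was 36.4% to 61.9% in replicate 1, which lies below the background by little. In replicate 2 it was 42.3% to 68.8% and included the background.

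Touching peaks joined, the overlapping peaks formed 36 shared sites in 19 genes. Their width ran from 38 to 327 bases with a median of 97.5. Of the sites, 19 lay in a 3′UTR, in 12 genes, and 14 in coding sequence, in 9 genes. The 5′UTR held 1 site, in 4933427I04Rik, and introns held 2, in 4921539E11Rik and 4930469K13Rik. Each site is described below by its best pair, the overlapping peaks whose smaller log2(fold change) was the highest. Where pairs tied, 1 of them is given. The medians of the best pairs were 2.95 in replicate 1 and 3.11 in replicate 2, and 19 sites were higher in replicate 1 and 17 in replicate 2. Of the 36 sites, 30 had at least 10 IP reads in both peaks of the best pair. A single SMInput read stood behind a best peak at 4 sites, those of 4933427I04Rik, 4921524J17Rik, 4921539E11Rik and 4931406P16Rik. Along the 3′UTR the sites were spread widely: the middle of the best pair lay 104 to 1,963 bases after the stop codon, with a median of 560, and 9 of the 19 lay within 500 bases.

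**Figure D1:**
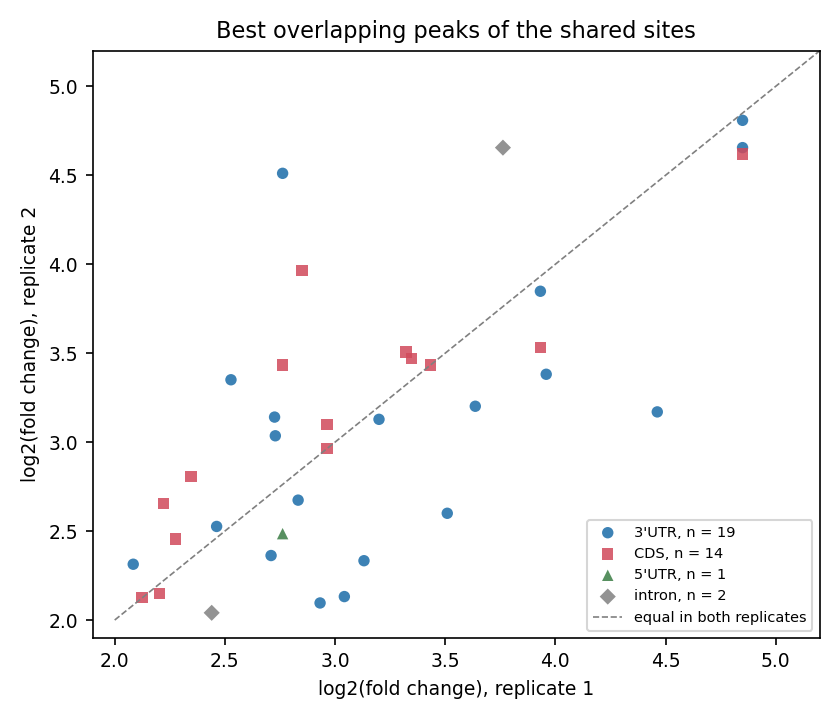
Log2(fold change) of IP over SMInput reads in the best overlapping peaks of the 36 shared sites, replicate 1 on the horizontal and replicate 2 on the vertical axis, by gene region. The dashed line marks equal values, and 19 sites lie on the side of replicate 1 and 17 on that of replicate 2.

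Ranked by the smaller value of the best pair, the first shared site belonged to 4933414I15Rik, a gene of 2 exons on the minus strand at chr11:50940711-50943765. GENCODE gives it a coding length of 402 bases, while RefSeq lists it as a lncRNA. All 9 of its clusters in replicate 1 and all 11 in replicate 2 were significant peaks. Its first site, chr11:50941739-50941987 in the 3′UTR, had 170 IP against 10 SMInput reads in replicate 1 and 109 against 14 in replicate 2. The log2(fold change) there was 4.85 and 4.81, and the −log10(P value) 55.9 and 70.7. A neighbouring peak of replicate 2 in the same site, with a log2(fold change) of 4.77, was listed at a −log10(P value) of 400, the cap of the tables. Nearer to the stop codon, a second 3′UTR site at chr11:50942018-50942098 had lower values of 3.20 and 3.13. The third site of the gene, chr11:50942356-50942682, was in coding sequence and was the widest of the 36, with 5 peaks between 2.59 and 3.43 in replicate 1 and 4 between 3.43 and 4.49 in replicate 2. One peak of replicate 2, in the intron, had no partner and a log2(fold change) of 2.19. Apart from the intronic peak, all clusters of this transcript lay in the last exon. The first exon held no cluster, so no fold change was measured there. Among the clusters, the log2(fold change) was highest well after the stop codon in both replicates.

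**Figure D2:**
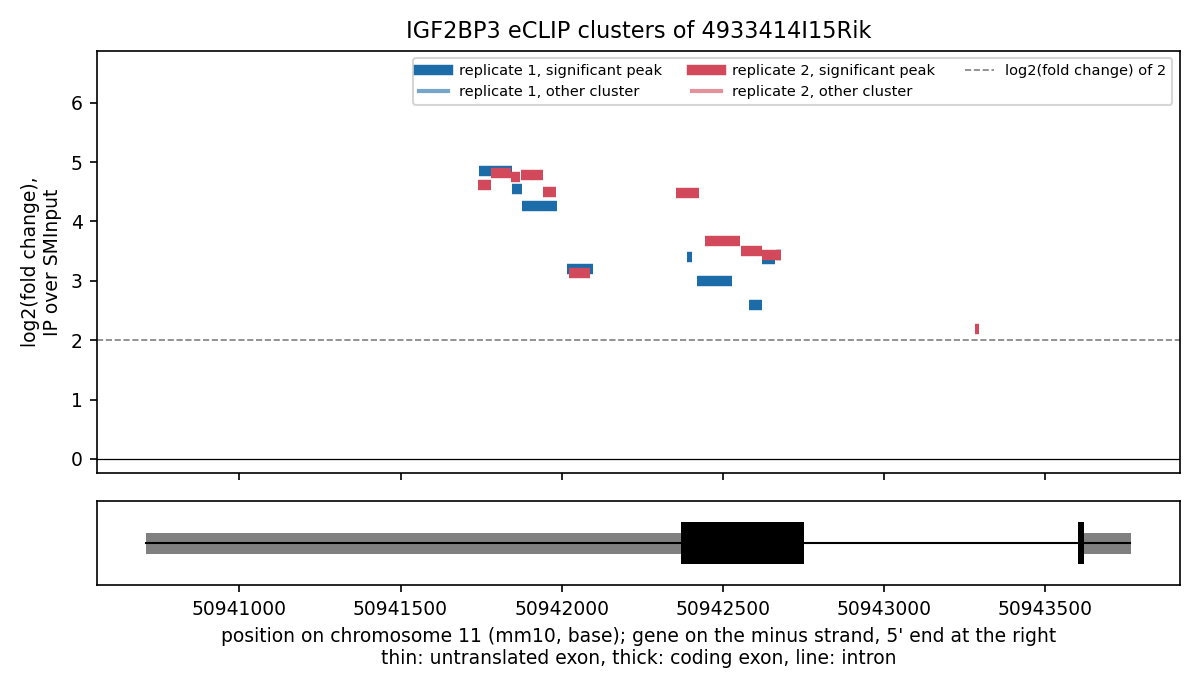
Clusters of 4933414I15Rik along chromosome 11 (mm10), drawn as bars from start to end at their log2(fold change) of IP over SMInput, blue for replicate 1 and red for replicate 2, with the exons below. All 9 and 11 clusters lie above the threshold of 2, and the 3′UTR site at the left reaches 4.85 and 4.81.

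Another gene of RefSeq's lncRNA class, 4933427I04Rik on the plus strand of chromosome 4, had 5 of 9 and 6 of 10 clusters significant. At its 3′UTR site, chr4:123862852-123862942, the log2(fold change) was 4.85 and 4.66, but with 17 IP reads in replicate 1 and 7 in replicate 2 against 1 SMInput read each. Fold changes against 1 read are coarse. Its 5′UTR site at chr4:123860098-123860197 was lower, at 2.76 and 2.49, with 12 against 3 and 14 against 9 reads. The third of the lncRNA class, 4930469K13Rik, had its site in an intron at chr11:34093770-34093877, with a log2(fold change) of 2.44 and 2.04.

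A site at the far end of a reading frame was found in 4930519P11Rik, a single-exon gene of 501 bases, all of them coding, without a match in RefSeq. Both of its clusters in replicate 1 and all 3 in replicate 2 were significant. At chr2:154612954-154613002, 38 bases before the stop codon by the middle of the best pair, IP reads stood at 34 against 2 in replicate 1 and 41 against 6 in replicate 2. The log2(fold change) was 4.85 and 4.62. Near the start codon, chr2:154613338-154613375 had 2.85 and 3.96.

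Several genes carried their shared sites in coding sequence alone. The 1 with most was 4921507P07Rik, whose product RefSeq calls the homolog of C7orf31. It had 7 of 25 clusters significant in replicate 1 and 7 of 24 in replicate 2, all in coding sequence. Its 5 sites lay in exons 8, 9 and 10 of 10, and the 3 in exon 10 had the higher values. The first of them, chr6:50573968-50574084, had a log2(fold change) of 3.35 and 3.47, with 30 against 5 and 77 against 25 reads. Exon 9 had 2.12 and 2.13, and exon 8 had 2.20 and 2.15, just over the threshold. Clusters in the exons nearer to the 5′ end stayed below a log2(fold change) of 2 in both replicates, although they covered the same transcript. Along this mRNA the significant peaks thus lay in exons 8 to 10, where the first shared site was 824 bases into a coding sequence of 1,767 bases. The 3′UTR of 399 bases held no cluster in either replicate, so no fold change was measured there, and the cluster nearest to the stop codon did not pass in either replicate.

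Deep coding sites were also seen in 4933411K16Rik, a single-exon gene at chr19:42052248-42053627 whose product is the homolog of C10orf62. Its site, chr19:42052966-42053134, held 112 IP against 19 SMInput reads in replicate 1 and 60 against 19 in replicate 2. The log2(fold change) was 3.32 and 3.51. The gene lies inside Hoga1 on the same strand, and reads of the 2 genes cannot be told apart here. In 4930453N24Rik, the homolog of C3orf38, a coding site of 257 bases at chr16:64766674-64766930 was deep but less enriched, with 80 against 28 and 96 against 63 reads. Its log2(fold change) was 2.28 and 2.46. A second peak of replicate 2 overlapped the same peak of replicate 1 and tied with this pair. It had a log2(fold change) of 2.955 from 84 against 39 reads.

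The gene 4933406M09Rik, listed as Mgat4f after the family of enzymes that branch N-glycans, had a coding site at chr1:134390222-134390370 with 45 IP reads in each replicate, against 5 and 14 in SMInput. Its log2(fold change) was 3.93 and 3.53. A peak of replicate 2 upstream in the same exon had 5.02, the highest of all significant peaks of these genes, but from 9 reads against 1 and without a partner in replicate 1. In 4930435E12Rik, now Tex55 for its testis-specific expression, the site at chr16:38828091-38828224 lay in the first exon. There the log2(fold change) was 2.76 and 3.43, with 12 against 3 and 21 against 7 reads.

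Other genes carried shared sites in the 3′UTR alone. In 4921536K21Rik, the homolog of C5orf52, 4 sites were spread over a 3′UTR of 2,072 bases, at 418, 866, 1,796 and 1,963 bases after the stop codon. The site nearest to the stop codon, chr11:3887705-3887779, had the highest best pair, with a log2(fold change) of 3.96 and 3.38 from 55 IP reads in each replicate against 6 and 19. Next along, the second had 3.64 and 3.20, and another of its peaks in replicate 2 had 3.54. The 2 sites nearest to the end had 2.73 and 3.04, and 2.73 and 3.14. The gene had 7 of 9 and 8 of 11 clusters significant, so that most of its 3′UTR signal stood above SMInput.

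A like spread was found in 4933415F23Rik, listed as Ppp1r14bl, a single-exon relative of the genes for inhibitors of protein phosphatase 1. Each replicate had 5 significant peaks in it, all in the 3′UTR, and they formed 4 sites, at 367, 662, 828 and 1,014 bases after the stop codon. In replicate 1 the log2(fold change) was highest at the second, with 3.51 from 47 against 7 reads, where replicate 2 had 2.60 from 32 against 19. It was lowest at the first, with 2.08, where replicate 2 had 2.31. In replicate 2 the 4 values lay between 2.13 and 2.67 and in replicate 1 between 2.08 and 3.51, so the order of the sites was not the same in both. All of these peaks also lie in the span of Gm29506 on the same strand, and reads of the 2 genes cannot be told apart here.

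The remaining genes with shared sites in the 3′UTR alone had 1 site each. In 4921524J17Rik, the homolog of C16orf87, the site at chr8:85409583-85409666 had 3.93 and 3.85, from 9 against 1 and 12 against 3 reads. In 4930596D02Rik it was at chr14:35809504-35809757, with 2.76 and 4.51 from 20 against 5 and 19 against 3 reads. The same peak of replicate 1 also overlapped a peak of replicate 2 at 3.43, from 12 against 4 reads. These 2 pairs tied, so the gap between replicates depends on the pair taken. In 4930524B15Rik, the homolog of C5orf47, the site at chr11:31979248-31979377 had 2.53 and 3.35. In 4933434E20Rik, the homolog of C1orf43, the site at chr3:90062009-90062169 had 3.13 and 2.33. In 4933416C03Rik, listed as Taf7l2 after a family of subunits of the general transcription factor TFIID, the site at chr10:116112344-116112410 lay 104 bases after the stop codon with 2.93 and 2.1. These single sites were of mixed strength, and in none of them did both replicates reach 4.

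Of the genes with shared sites, some longer ones had sites in several regions or few sites for their length. The longest mRNA among them, that of 4932438A13Rik, encodes KIAA1109, a very large transmembrane protein that moves lipids between membranes. It has 86 exons, 242 clusters in replicate 1 and 193 in replicate 2, and 8 and 16 significant peaks. From these came 2 shared sites. In exon 5, chr3:36875445-36875530 had 46 against 10 and 50 against 21 reads and a log2(fold change) of 2.96 and 3.10. At the other end of the mRNA, chr3:37052771-37052966 in the 3′UTR had 2.71 and 2.36.

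The gene 4931406P16Rik, listed as Garre1 for a granule-associated effector of RAC and RHOG, had 5 peaks in replicate 1 and 13 in replicate 2, of which 4 and 6 lay in its 3′UTR. Its 3′UTR site at chr7:34237358-34237423 had a log2(fold change) of 4.46 and 3.17, where the first value rested on 13 reads against 1. A coding site in exon 12 of 14, chr7:34240509-34240636, had 2.22 and 2.66. In 4921539E11Rik, the homolog of C1orf141, a 3′UTR site at chr4:103230655-103230770 had 2.46 and 2.53. Its intron site, chr4:103232502-103232617, had 3.76 and 4.66 from 8 against 1 and 7 against 1 reads, so that the higher value rested on fewer reads.

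In 17 of the 36 genes with peaks in both replicates no peaks overlapped, 47.2% beside 57.5% of all such protein-coding genes. The gene 4930402H24Rik, the homolog of C20orf194, which is known as an assembly factor of ciliary dynein, spans 200,207 bases and had 144 and 107 clusters. Its 3 peaks of replicate 1 and 10 of its 13 peaks of replicate 2 were intronic, and none of these intronic peaks had more than 10 IP reads. The highest, at chr2:130832428-130832478 in replicate 2, had a log2(fold change) of 4.43 from 6 reads against 1. Both shares, 3 of 144 and 13 of 107 clusters, were below those of all protein-coding genes, 4.91% and 13.1%. In 4930579G24Rik, the homolog of C4orf46, all peaks were in the 3′UTR and deeper: in replicate 1, chr3:79631993-79632071 had 4.35 from 24 against 2 reads, and in replicate 2 the higher of 2 peaks, chr3:79631425-79631515, had 3.29 from 19 against 7. The peaks of the 2 replicates lay in the same 3′UTR and did not touch.

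Strong peaks without a partner were also seen beside shared sites. In 4930524B15Rik, chr11:31978432-31978462 had a log2(fold change) of 4.35 in replicate 1 from 12 reads against 1. The same fold and read numbers were found in the 5′UTR of 4933427I04Rik, at chr4:123859971-123860040 in replicate 1. In 4921539E11Rik, a coding peak of replicate 2 had 4.43 from 6 reads against 1. In 4930550C14Rik, which RefSeq calls protein MFI, both peaks were in coding sequence and in replicate 2 only, the higher at 4.43 from 6 reads against 1. The highest fold changes without a partner, those of rank 1 to 5 with ties, thus rested on 1 SMInput read in every gene but 4930579G24Rik.

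In 4930451I11Rik, the homolog of C16orf92, the 1 cluster of each replicate was a significant peak; this gene was named after its values were seen. The peaks were 8 against 2 reads in replicate 1 and 6 against 4 in replicate 2, at a log2(fold change) of 2.76 and 2.43, and they lay in coding sequence without overlap. Together with 4933414I15Rik and 4930519P11Rik it made up the 3 genes in which every cluster of both replicates was significant.

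At the other end, 52 of the 110 genes with clusters had no significant peak, 47.3% beside 38.3% of all such protein-coding genes. The gene with most was 4930503L19Rik, listed as lung adenoma susceptibility protein 2, with 28 clusters in replicate 1 and 30 in replicate 2. Up to 30 and 38 SMInput reads in a cluster show that its RNA was sampled, while its deepest cluster had 21 IP reads in replicate 1 and 14 in replicate 2. Next came 4930519G04Rik with 29 and 19 clusters. In 4931409K22Rik, listed as Iqca1l for its IQ and AAA domains, 19 and 26 clusters held up to 25 and 42 SMInput reads. The gene 4933402J07Rik, the homolog of C16orf78, had 19 and 14 clusters with up to 20 and 55 SMInput reads. In 4921524L21Rik, named for an ankyrin repeat domain protein, there were 23 and 8 clusters, none with more than 15 SMInput reads.

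Peaks were spread over the genes much as in the background. The 10 genes with at least 10 significant peaks, replicates summed, were 17.2% of those with a peak, beside 13.4% of all such protein-coding genes. They held 60 of the 116 and 89 of the 184 peaks, or 51.7% and 48.4% beside 50.7% and 42.2%. At the low end, 24 genes had 1 or 2 peaks in all, 41.4% beside 44.4%. In replicate 1 alone 6 genes had a peak and in replicate 2 alone 16, or 4.26% and 11.3% beside 4.21% and 14.8% of all protein-coding genes. By clone library, shared sites were found in 7 of the 30 genes with a 4933 name and in 4 of the 12 with a 4921 name, which are 4921507P07Rik, 4921524J17Rik, 4921536K21Rik and 4921539E11Rik. They were found in 6 of the 78 with a 4930 name, 1 of the 14 with a 4931 name, 1 of the 6 with a 4932 name and not in the 1 gene with a 4922 name. Over all 49xx genes the share was 13.5% and over all protein-coding genes 9.33%, and the libraries were not tested against each other.

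Sequence at the sites was read from the genome on the strand of the gene and searched for 4 words: GGAC, the core in which adenosine is most often methylated to m6A in mRNA, ACACA, a CA-rich word of the kind that IGF2BP proteins bind, GAACA and AAACC. No word contains another of the 4, though neighbouring matches may share bases. GGAC was in 9 of the 36 shared sites (25.0%), in 8 genes. GAACA was in 3 sites, those of 4930435E12Rik, 4930453N24Rik and 4933416C03Rik. AAACC was in 2, of 4933414I15Rik and 4921507P07Rik, and ACACA in 2, of 4933411K16Rik and 4930435E12Rik. Most sites, 24 of 36 or 66.7%, had none of the 4 words. A match is a description of the letters and not proof of a contact.

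For comparison with other genes, windows of 100 bases were laid at the centres of the shared peaks of replicate 1. In the 3′UTR, 25.9% of 27 windows held GGAC, beside 23.9% of 3,272 windows of all protein-coding genes. The others were in 1 window each there: 3.70% for GAACA beside 7.37%, 3.70% for AAACC beside 9.38% and 3.70% for ACACA beside 11.9%. The Wilson interval of each, 0.657% to 18.3%, includes its background share. In coding sequence, 41.7% of 24 windows held GGAC, beside 27.0% of 1,711. The Wilson interval for GGAC there, 24.5% to 61.2%, includes the background share. AAACC was in 29.2% beside 11.5%, GAACA in 8.33% beside 8.53% and ACACA in 8.33% beside 10.8%. The region shares given above count 1,691 of these background peaks as coding, so the splits differ a little. Windows of touching peaks overlap, and the 7 coding windows with AAACC came from 2 genes, 4933414I15Rik and 4921507P07Rik, while the 10 with GGAC came from 7 genes. With windows of 200 bases 3 of these comparisons with the background turned: in coding sequence GAACA stood at 37.5% beside 18.3% and ACACA at 20.8% beside 18.8%, and in the 3′UTR GGAC stood at 33.3% beside 40.4%. ACACA in the 3′UTR rose to 18.5% beside 24.3%.

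Sequences from sites of 3 genes are given 5′ to 3′ on the minus strand of mm10 (GRCm38), on which these genes lie. They were chosen to show the site of rank 1 and examples of GGAC and AAACC, so sites without a word are under-represented. Capitals mark the searched words. The first is the middle of the best 3′UTR pair of 4933414I15Rik, chr11:50941798-50941827, which holds none of the words. The next ones come from the coding site of that gene, chr11:50942513-50942542 and chr11:50942560-50942589, from the exon 10 site of 4921507P07Rik with the highest values, chr6:50574017-50574046, and from the site at the end of the reading frame of 4930519P11Rik, chr2:154612973-154613002.
4933414I15Rik 3′UTR: ctagcccaaagccaatgagctacttcctca
4933414I15Rik coding, GGAC: tcaccctcgctttGGACcaGGACtgatctg
4933414I15Rik coding, AAACC: tgctggccagtgAAACCagactgatggcac
4921507P07Rik coding, AAACC: tgctatgtgtccAAACCctgttcgcctcag
4930519P11Rik coding, GGAC: cgaaGGACtcctatctctggtcttaattcc

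A second set, again on the minus strand, shows GGAC and GAACA in other sites. Those of 4930453N24Rik and 4933416C03Rik ranked low by the smaller value of the best pair. It comes from the second 3′UTR site of 4921536K21Rik, chr11:3887340-3887369, the Tex55 coding site of 4930435E12Rik, chr16:38828178-38828207, the coding site of 4930453N24Rik, chr16:64766796-64766825, and the 3′UTR site of 4933416C03Rik, chr10:116112379-116112408. In the last 2 the capitals mark GAACA.
4921536K21Rik 3′UTR, GGAC: caaatttGGACctcctgtctcctgtctgcc
4930435E12Rik coding, GGAC: aggatctagaaaaGGACtatacccgagtta
4930453N24Rik coding, GAACA: tataacacctcaGAACAaaacacgacagac
4933416C03Rik 3′UTR, GAACA: ttttgtttctttGAACAtttcactgattgt

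Another class of clone-named genes served as a comparison, the 103 protein-coding genes with a 1700 name, which also stands for testis clones. Their shares were higher throughout. In replicate 1, 13.4% of their clusters were significant peaks, beside 6.13% for the 49xx genes, and the Wilson intervals of 11.6% to 15.4% and 5.14% to 7.31% did not overlap. In replicate 2 the shares were 24.9% and 13.8%, with intervals of 22.2% to 27.9% and 12.1% to 15.8%. By gene, 40.8% of the 1700 genes had a peak in both replicates, beside 25.5%, and 25.2% had overlapping peaks, beside 13.5%. By gene the intervals did overlap, with 31.8% to 50.4% and 19.1% to 33.3% for a peak in both replicates and 17.8% to 34.4% and 8.80% to 20.1% for overlapping peaks. In these shares the 49xx genes were nearer to the protein-coding background than the 1700 genes were.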

How the data were processed

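IGF2BP3 eCLIP-seq clusters of mouse testes were read from 1 table per replicate, each comparing 1 IP with its SMInput. Per the study's methods and processing notes, the authors trimmed reads with cutadapt, removed rRNA with Bowtie2, aligned to mm10 with STAR, collapsed duplicates by UMI and called clusters with Clipper. The deposited −log10(P value) comes from the authors' chi-square or Fisher's exact test of IP against SMInput reads and is listed as 0 without enrichment and at most as 400. The deposited log2 values are the authors' ratios of IP to SMInput reads, each per library total. No cluster ran past a chromosome end (0 in both replicates).

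Gene spans and regions came from GENCODE M21 basic transcripts, in the order 3′UTR, coding sequence, 5′UTR, non-coding exon and intron, and names from RefSeq. Library totals and reads were the whole numbers that return both listed values. The recovery of reads was tested on data simulated at the recovered totals, which does not test the totals. For 674 and 303 clusters there were several solutions. They and the clusters listed at 0 or 400 (35,791 and 155, 16,261 and 327) were left out where reads were used. The authors' P values were not adjusted. The 2 replicates form 1 group, so sample groups were not tested against each other, and shares carry 95% Wilson intervals for counting error only. Analyses used python 3.11.15, numpy 2.4.6, pandas 2.3.3, scipy 1.17.1, pysam 0.24.0 and matplotlib 3.10.9.

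Named genes were (a) up to 20 with overlapping significant peaks of both replicates, (b) the 5 with most significant peaks, (c) the 5 highest log2(fold change) values of peaks without a partner, ties kept, and (d) the 5 with most clusters and no significant peak. The members and lists were chosen with earlier results of these data known. Alternatives covered thresholds, adjusted P, the rule giving a cluster its gene, at least 10 IP reads, exons alone, the overlap, the order of regions and transcript set, windows of 200 bases, cluster pairs and each replicate alone. After seeing the data, a Cochran-Mantel-Haenszel test of overlapping clusters, stratified by replicate, was added.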

Additional observations from a re-analysis of the deposited data

How the results depend on the processing

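Of 84 alternative values, 65 stayed within 1.5 times the count, or within the interval of the share or correlation, and 19 did not. With both thresholds at 3, significant peaks were 39 in replicate 1 and 51 in replicate 2, genes with a peak 21 and 25, genes with a peak in both 12 and genes with overlapping peaks 9; the background fell too, to 1.18% and 2.40% of clusters in protein-coding genes beside 2.06% and 3.83% here. Lowering the log2(fold change) threshold to 1 gave replicate 1 176 peaks. With at least 10 IP reads, replicate 2 had 99 peaks in 29 genes. Each replicate alone gave 116 to 184 peaks in place of 300 summed, and 42 to 52 genes in place of 58. Among peaks that overlap the other replicate, the 5′UTR share in replicate 1 was 1.82% and the intron share 5.45%, and in replicate 2 the 3′UTR share was 56.0% and the intron share 4.0%. Pearson's r was 0.56 over the cluster pairs in which either member reached a −log10(P value) of 2. In windows of 200 bases, ACACA in the 3′UTR stood at 18.5% and GAACA in coding sequence at 37.5%. Thresholds, read minimum and window length act by their construction; for the region shares and the correlation the cause was not tested. Apart from the thresholds at 3 and the block, genes with overlapping peaks numbered 17 to 21. With the replicate as a block, chosen after seeing the data, 1 Mantel-Haenszel odds ratio and P were taken per pair of overlapping clusters at the same thresholds. This gave 38 genes, among them all 19 with overlapping peaks, and 4,995 protein-coding genes in place of 2,048. Such a pair can pass when 1 of its clusters does not, and 173 of the 687 pairs, those in which at least 1 cluster had no recovered reads, were left out.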

Other observations

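Clone-named genes on the X chromosome stood apart from the autosomal ones in these tables. Of the 20 on X, 9 had a cluster in either replicate and none had a significant peak in replicate 1. In replicate 2 the 1 gene with a peak was 4932411N23Rik, which RefSeq describes as a Myb-like DNA-binding domain protein, with 7 against 5 reads and a log2(fold change) of 2.33; it was named after its values were seen. Of the 121 autosomal genes, 101 had a cluster, 42 had a peak in replicate 1 and 51 in replicate 2. Among all protein-coding genes, X genes also had fewer, with a cluster in 56.9% beside 67.4% of autosomal genes, and with a peak in 12.6% and 23.9% of 948 beside 27.0% and 37.7% of 20,807. The median span of the X members was 3,393 bases and that of the autosomal ones 16,140, and the part of length in the difference was not tested.

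A peak in replicate 1 was found in 11 of 48 members under 5 kb, in 20 of 77 from 5 to 50 kb and in 11 of 16 of 50 kb or more, beside 9.82%, 24.9% and 42.9% of all protein-coding genes. In replicate 2 the numbers were 16, 23 and 13, beside 12.4%, 35.0% and 61.3%. Shared sites were found in 7, 8 and 4 members of these classes, the last being 4930469K13Rik, 4931406P16Rik, 4932438A13Rik and 4921539E11Rik. Over all protein-coding genes, shared sites were found in 4.48%, 9.01% and 14.2% of the classes. Single-exon genes numbered 22, of which 13 had a cluster, 6 and 10 a significant peak in replicates 1 and 2, and 4 a shared site (4930519P11Rik, 4933411K16Rik, 4933415F23Rik and 4933416C03Rik). Of the 1,544 single-exon protein-coding genes, 27.5% had a cluster, 8.29% and 10.6% a significant peak and 3.56% a shared site.

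Of the 31 members without a cluster, 20 were protein-coding in RefSeq. In 11 members at least 50% of the 31-base words of the transcript also occurred in other genes, where reads may map to several places. Of these 11, 7 had clusters and 0 had a shared site, beside 103 and 19 of the other 130. Another gene on the same strand overlapped 25 members, 6 of them with a shared site, where 13.5% of all members and 9.33% of all protein-coding genes had one. With clusters in such overlaps left out 17 genes had overlapping peaks, without 4933411K16Rik and 4933415F23Rik.

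On the opposite strand of the members' spans lay 64 clusters in replicate 1, of which 2 were significant (3.12%), and 57 in replicate 2, of which 11 were significant (19.3%). Of all clusters in the tables, 4.92% and 13.2% were significant. All of those on the opposite strand lay in an annotated gene of that strand.

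On its own strand, 4931428L18Rik, a lncRNA in RefSeq that was named after its values were seen, had 8 intronic peaks in replicate 2, with 4 to 7 IP reads each, and none among 54 clusters in replicate 1.

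In the 12 germ cell markers, 36 of 354 clusters in replicate 1 and 38 of 322 in replicate 2 were significant peaks, while Prm1, Prm2, Tnp1, Tnp2 and Sycp3 had 0 in either. Sertoli markers had 1 of 122 and 6 of 109, Leydig markers 2 of 41 and 4 of 40, and markers of peritubular cells and vessels 1 of 67 and 3 of 36. Igf2bp3 itself had 39 and 32 clusters, of which 5 and 8 were significant. Of the clusters in all protein-coding genes, 4.91% and 13.1% were significant. The share of the germ cell markers was thus above the background in replicate 1 and below it in replicate 2, and the difference was not tested.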
